A study of Zea mays with 6 samples.

Results

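Of the 39656 genes in the deposited table, 3 had at least 10 RPM (reads per 1000000 uniquely aligned reads of a library) in each of 4 leaf primordium libraries and at most 1.0 RPM in both libraries of the center zone. They are GRMZM2G072034, GRMZM2G045748 and GRMZM2G051942. A further limit, that the means of the adaxial and abaxial sides of the leaf lie within 3-fold of each other, removed no gene. The selection also left out 7 genes by identifier, and none of the 7 met the limits. By symbol, 4 of them are named as YABBY genes and 1 as DL1. The libraries came from cells captured by laser microdissection from sections of 8 µm of 14-d-old wild-type B73 seedling apices. B73 is the maize inbred line of the reference genome. Cells were taken from the center zone of the shoot apex, from the upper (adaxial) side of the leaf primordia P2 and P3, numbered from the youngest outwards, and from their lower (abaxial) side, with 2 libraries each. The methods of the study give at least 10 apices for each replicate, so a library is a pool of plants.

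The shoot apical meristem keeps a reservoir of stem cells at its tip and forms leaves on its flanks. Class I KNOX homeobox genes such as kn1 are active in the meristem and shut off where a leaf is formed. YABBY transcription factors are known from lateral organs, where they take part in leaf outgrowth and polarity. Genes that are on in both sides of a young leaf and off in the stem cells would mark this change of state. In captured tissue, fewer cells of a type and less RNA per cell cannot be told apart.

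The libraries held between 14718269 and 25898155 counted reads, and the abaxial pair was the smallest. A gene with no read could have had up to 0.112 to 0.196 RPM, the level of 3 reads in the deepest and the shallowest library. Defining genes of the captured regions were checked first. The 3 leaf YABBY genes yab9, yab10 and yab14 together had 4.1 to 5.6 RPM in the center zone libraries and 149.6 to 188.0 RPM in the leaf libraries, and none was at 0. Of the other genes fixed as leaf primordium markers, yab15 carries the symbol yabby15 and was missed, and drl1 and drl2 had no match under those symbols. The gene yabby15 was not as low, with 78.8 and 16.3 RPM in the center zone and 293.9 to 374.3 RPM in the leaf. GRMZM2G088309 carries the symbol DL1, which the marker list did not hold, and whether it is drl1 was not looked up. It had 0.1 RPM in each center zone library and 2.5 to 3.1 RPM in the leaf. The 10 KNOX genes fixed as meristem markers together had 1254.8 to 1464.1 RPM in the center zone and 58.2 to 67.5 RPM in the leaf, where 1 of them was at 0. The 3 abaxial markers summed to 5.5 and 1.4 RPM in the center zone, 3.6 and 1.9 RPM adaxially and 83.7 and 80.0 RPM abaxially. The 8 adaxial markers summed highest in the center zone, with 2286.8 and 2598.9 RPM. They had 1848.5 and 1753.9 RPM adaxially and 1332.3 and 1291.9 RPM abaxially. Of the 7 tested, 2 were called lower and 2 higher in the center zone than adaxially. Lists of markers of other cell types did not all follow the leaf. The 5 genes fixed as epidermis markers, which include the vacuolar pump gene vpp1, summed to 649.8 to 665.6 RPM in the center zone and 1789.0 to 2095.9 RPM in the leaf, with none at 0, and 4 of the 5 were called lower in the center zone than on each side. The 12 markers of mature photosynthetic leaf tissue summed to 52.4 to 79.7 RPM and 335.4 to 476.7 RPM, with 2 of them at 0 in the center zone and 3 at 0 in the leaf. Of these, 5 were tested and 1 was called lower in the center zone than on each side, and their median log2 fold changes, -0.11 against adaxial and 0.53 against abaxial, did not follow the sum. The 5 markers of vasculature summed to 1.9 to 29.0 RPM in the center zone, with none at 0, and to 4.0 to 15.5 RPM in the leaf, with 1 at 0. These ranges overlap, and the 1 marker tested was not called. The part of these cell types in the levels of the 3 genes was not tested.

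GRMZM2G072034 lies on chromosome 5 of B73 RefGen_V3, from position 184040573 to 184041793 on the minus strand, a span of 1221 bp. It is the only one of the 3 genes that matched an entry of the gene name table used, LOC100272963, a protein-coding gene without a symbol. The center zone libraries had 0.7 and 0.4 RPM of it, the adaxial ones 27.4 and 32.3 RPM, and the abaxial ones 17.2 and 18.8 RPM. All leaf libraries stood far above both center zone libraries, and both adaxial libraries stood above both abaxial ones. The means were 0.55 ± 0.212 RPM in the center zone, 29.85 ± 3.46 RPM in adaxial and 18.0 ± 1.13 RPM in abaxial tissue (SD, n = 2 each). Its reads in the leaf, scaled to aligned reads, were 46.0 times those in the center zone, with a 95% exact interval of 31.3 to 70.6. Such intervals hold counting error alone and treat reads as independent. They are too narrow, because amplification makes many reads from 1 molecule.

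GRMZM2G045748 lies on chromosome 7, from 112469497 to 112471651 on the plus strand, a span of 2155 bp. It had 1.0 and 0.7 RPM in the center zone libraries, 28.4 and 21.8 RPM in the adaxial ones and 17.2 and 12.4 RPM in the abaxial ones. Again no leaf library came near the center zone, and the adaxial pair stood above the abaxial pair, here by the smaller gap of 4.6 RPM. This gene sits at the ceiling of the selection. Its 23 reads in replicate 1 of the center zone have a 95% exact Poisson interval of 0.605 to 1.43 RPM, which extends over the limit of 1.0 RPM. The means were 0.85 ± 0.212 RPM in the center zone, 25.1 ± 4.67 RPM in adaxial and 14.8 ± 3.39 RPM in abaxial tissue (SD, n = 2 each). The leaf level was 26.0 times that of the center zone (95% exact interval 18.9 to 36.9). In replicate 1 of the center zone, the Poisson interval of GRMZM2G072034, 0.379 to 1.08 RPM, also extended over 1.0 RPM.

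GRMZM2G051942 lies on chromosome 9, from 126243462 to 126244685 on the minus strand, a span of 1224 bp. The center zone libraries had 0.6 and 0.4 RPM, the adaxial ones 23.7 and 21.3 RPM and the abaxial ones 11.3 and 16.9 RPM. Leaf and center zone did not overlap, nor did the sides of the leaf. The abaxial pair was the less even of the leaf pairs, with a ratio of 1.5 between replicates against 1.11 in the adaxial pair. The means were 0.5 ± 0.141 RPM, 22.5 ± 1.7 RPM and 14.1 ± 3.96 RPM in the center zone, adaxial and abaxial tissue (SD, n = 2 each). The leaf level was 39.5 times that of the center zone (95% exact interval 26.2 to 62.5). In replicate 1 of the abaxial pair, the Poisson interval of GRMZM2G051942, 9.72 to 13.2 RPM, extended under the leaf minimum of 10 RPM.

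**Figure D1:**
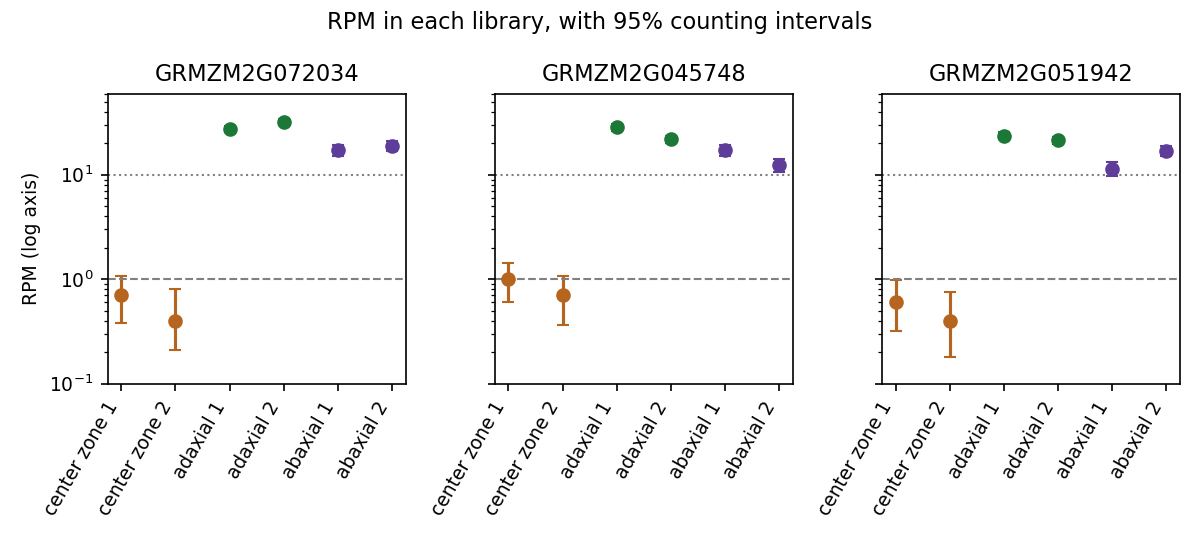
RPM (log axis) of each of the 3 genes in the 6 libraries, with 95% exact Poisson intervals of the reads, and with the limits of the selection drawn at 10 RPM (dotted) and 1 RPM (dashed). Center zone points lie between 0.4 and 1.0 RPM, abaxial points between 11.3 and 18.8 RPM and adaxial points between 21.3 and 32.3 RPM.

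The 3 genes were low in the center zone but not without reads. Between 9 and 23 reads were counted for each gene in each center zone library, above the floor of 3 reads, against 174 to 867 reads in the leaf libraries. Scaled to aligned reads, the center zone level was 2.17% of the leaf level for GRMZM2G072034, 2.53% for GRMZM2G051942 and 3.84% for GRMZM2G045748. The name "silent" is therefore stronger than the counts. Replicate 1 of the center zone was higher than replicate 2 for all 3 genes. The reads were 16 and 10 for GRMZM2G072034, 23 and 15 for GRMZM2G045748 and 14 and 9 for GRMZM2G051942. The ratios of their RPM, 1.43 to 1.75, and the SDs in the center zone carry the rounding of RPM to 1 decimal. In the same direction went 54.6% of the 17993 genes tested, those with a mean of at least 2 RPM in at least 1 of the 3 tissues.

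The order of levels was the same for each gene, with adaxial first, abaxial next and the center zone last. The gap between the abaxial side and the center zone was larger than any spread within a pair of the same gene. Fitted with edgeR in a model of the 3 tissues, the log2 fold change of the center zone against the adaxial side was -5.91 (SE 0.32) for GRMZM2G072034, -5.10 (SE 0.34) for GRMZM2G045748 and -5.67 (SE 0.36) for GRMZM2G051942. Against the abaxial side, GRMZM2G072034 had -5.13 (SE 0.32), GRMZM2G045748 -4.30 (SE 0.33) and GRMZM2G051942 -4.95 (SE 0.35). All 3 passed a Benjamini-Hochberg adjusted p under 0.01 against each side, where 5.61% (adaxial) and 4.42% (abaxial) of all tested genes were called lower in the center zone. The genes were chosen on these same values, so their count is a description of the selection. Likewise, 22.9% of all tested genes had all 4 leaf libraries above both center zone libraries.

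Between the sides of the leaf, the 3 genes leaned the same way. The adaxial mean was 1.66 times the abaxial mean for GRMZM2G072034, 1.70 times for GRMZM2G045748 and 1.60 times for GRMZM2G051942, and in each the lower adaxial library was above the higher abaxial library, by 8.6, 4.6 and 4.4 RPM. Such a separation of the sides, adaxial higher, was seen for 16% of all tested genes. The fitted log2 fold changes of adaxial against abaxial were 0.79 (SE 0.25) for GRMZM2G072034, 0.81 (SE 0.28) for GRMZM2G045748 and 0.72 (SE 0.28) for GRMZM2G051942. None of the 3 passed the adjusted threshold in edgeR, DESeq2 or limma-trend, and 0.0723% of all tested genes did in edgeR. At an unadjusted p under 0.05 in edgeR there were 3 of the 3 genes, and 943 of the 17993 tested. The ratio of the sides was part of the selection, although its limit removed no gene, and these counts are given as a description.

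Few leaf genes were this low in the center zone. At least 10 RPM in each leaf library was found for 11339 genes, and 3 of these (0.0265%) stayed at or under 1 RPM in the center zone. With a ceiling of 2 RPM the number was 19 (0.168%), with 5 RPM it was 89 (0.785%), and at 0.5 RPM there was none. By the ratio of the lowest leaf library to the highest center zone library, GRMZM2G072034 ranked 3 among the 11339 genes with 24.6-fold, GRMZM2G051942 ranked 5 with 18.8-fold and GRMZM2G045748 ranked 15 with 12.4-fold. The limits force a ratio of at least 10, so these ranks describe the selection. The ratios rest on RPM rounded to 1 decimal, which is coarse for center zone levels at or under 1 RPM. Above GRMZM2G072034 were 2 genes of those left out by identifier, GRMZM2G102218 with 49.3-fold and yab14 with 27.0-fold. Their center zone levels kept both over the ceiling, with 2.6 and 2.4 RPM for GRMZM2G102218 and 1.9 and 2.6 RPM for yab14. In the leaf, GRMZM2G102218 had 128.3 to 202.9 RPM and yab14 had 70.1 to 111.8 RPM.

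**Figure D2:**
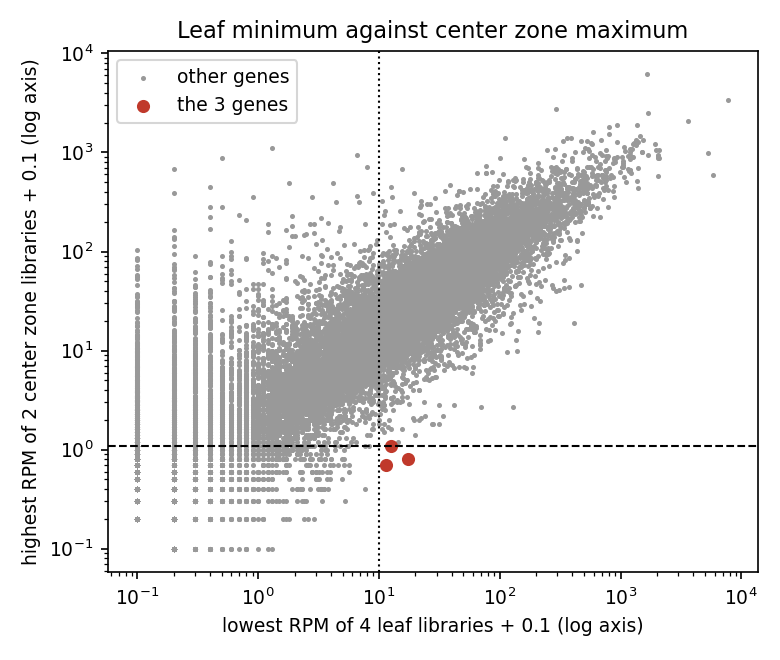
Lowest RPM of the 4 leaf libraries against the highest RPM of the 2 center zone libraries, each with 0.1 RPM added (log axes), for every gene with a value above 0 on either axis, and the limits of 10 RPM (dotted) and 1 RPM (dashed). The 3 genes are the points in the lower right field, and the densest part of the cloud runs along the diagonal.

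The opposite limits gave more genes. In the center zone, 12036 genes had at least 10 RPM in both libraries, and 53 of them (0.44%) were at or under 1 RPM in all 4 leaf libraries. At a ceiling of 0.5 RPM there were 23 such genes, where the leaf direction gave 0. The directions differ in how many libraries have to pass each limit. In the leaf direction 4 libraries have to reach the minimum and 2 to stay under the ceiling, and in the other direction 2 and 4. With the adaxial libraries alone, 9 leaf genes and 60 center zone genes passed, and with the abaxial libraries alone 13 and 99. These are counts of genes over the same libraries, without a test.

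**Figure D3:**
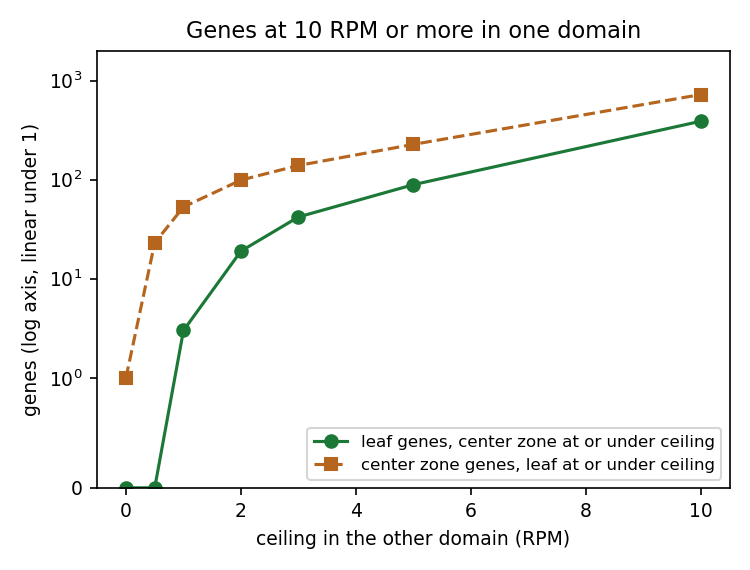
Number of genes (log axis, linear under 1) with at least 10 RPM in all libraries of one domain and at or under a ceiling (RPM) in all libraries of the other. At 1 RPM the leaf direction (circles) has 3 genes and the center zone direction (squares) 53, and the center zone direction is the higher at every ceiling drawn.

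Both replicates of the center zone limited how many leaf genes passed, replicate 1 more than replicate 2. Without it 36 genes met the limits, and without replicate 2 there were 8. All 3 genes were among them in both cases, which was fixed beforehand, since leaving out a center zone library only loosens the limits. The number stayed at 3 without any single leaf library. Of the 3 genes nearest outside the ceiling, GRMZM2G007130 (1.1 and 0.6 RPM in the center zone) and GRMZM2G009188 (1.5 and 0.7 RPM) were over it in replicate 1 only, and GRMZM2G161809 (1.4 and 1.1 RPM) in both replicates. Their leaf libraries had 10.4 to 38.9 RPM. On the other limit, the nearest genes outside were GRMZM2G154124, with 1.0 RPM in each center zone library and a lowest leaf value of 8.1 RPM, GRMZM2G165987, with 0.1 and 0.3 RPM and 7.5 RPM, and GRMZM2G152555, with 0.6 and 0.4 RPM and 5.5 RPM.

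A ceiling of 2 RPM, with the other limits unchanged, added 14 genes, 3 of which have a symbol. Among them were A1, the dihydroflavonol reductase gene of the anthocyanin pathway, zfl1, a maize homolog of the floral regulator LEAFY of Arabidopsis, and MYBR113, which is named as a MYB-related gene. They were chosen for mention after their values had been seen. A1 had 1.5 and 1.4 RPM in the center zone and 12.4 to 19.6 RPM in the leaf. For zfl1 the levels were 2.0 and 1.5 RPM and 22.4 to 37.6 RPM. MYBR113 had 1.7 and 0.8 RPM in the center zone and was uneven in the adaxial pair, with 33.8 and 85.6 RPM, beside 27.4 and 27.7 RPM in the abaxial pair. In 5 of the 14 genes the adaxial pair lay wholly above the abaxial pair, while 3 had the reverse, beside 16% and 19.4% of all tested genes. In 13 of the 14, replicate 1 of the center zone was the higher one, and 8 were at or under 1 RPM in replicate 2. For 2 of them, GRMZM2G007130 and GRMZM2G161809, the lower end of the counting interval was at or under 1 RPM in both center zone libraries. Reads at this depth do not place these 2 on either side of the limit. The intervals hold counting error alone, so the same may be true of more of the 14.

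**Figure D4:**
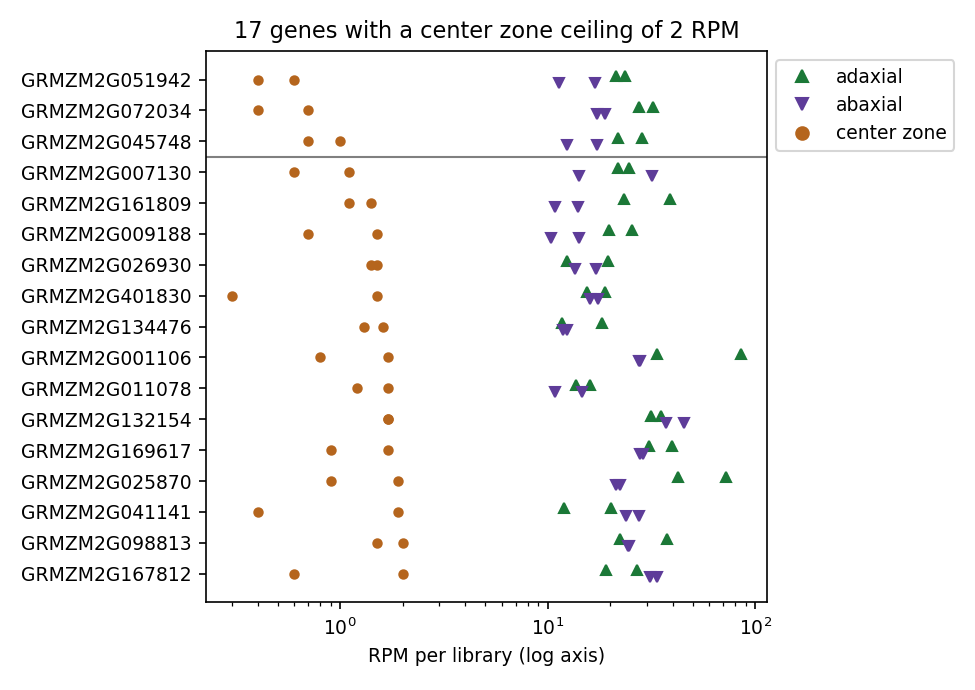
RPM in each library (log axis) of the 17 genes that meet the selection with a ceiling of 2 RPM, sorted by their higher center zone value, with the 3 genes above the grey line. Center zone points (circles) lie at 0.3 to 2.0 RPM, and the leaf points (triangles up for adaxial, triangles down for abaxial) at 10.4 RPM or more.

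No function is given here for the 3 genes, since none has a symbol in the gene name table. Of the 506 genes in 22 lists of families and pathways matched by symbol, 165 had at least 10 RPM in all leaf libraries, and none met the limits. Of the YABBY list, 4 of 8 genes had 10 RPM or more in the leaf, 2 of these at or under 2 RPM in the center zone and 3 at or under 5 RPM. Of the larger MYB list, 19 of 66 genes did, with 1 at or under 2 RPM and 4 at or under 5 RPM. Of the 8 tested YABBY genes, 4 were called lower in the center zone than on the adaxial side and 4 lower than on the abaxial side, beside 5.61% and 4.42% of all tested genes, with none higher, and their median log2 fold changes were -3.29 and -4.55. Medians over all tested genes were 0.03 for each side. Of the 35 tested MYB genes, 5 were lower than on each side, and 4 (adaxial) and 5 (abaxial) were higher. The growth regulator list (GRF and GIF genes, with 2 genes of the 14-3-3 family that share the symbol) had 19 of 20 genes at 10 RPM or more in the leaf and none at or under 5 RPM in the center zone. Of its 19 tested genes, 10 were lower than on the adaxial side and 8 lower than on the abaxial side, with median log2 fold changes of -1.45 and -1.17. Lipid transfer and cuticle genes had 3 of 7 tested genes lower than on each side, and 1 of 3 leaf genes at or under 5 RPM in the center zone. Their median log2 fold changes were -1.54 (adaxial) and -0.47 (abaxial). Other lists had more genes called higher than lower in the center zone. Of all 17993 tested genes, 1148 (against adaxial) and 1120 (against abaxial) were called higher there. Of 16 tested genes of the cytokinin list 0 were lower, and 3 (adaxial) and 4 (abaxial) were higher. This list also took in the retinoblastoma-related genes RBR1 and RBR2, which matched through their synonyms rrb1 and rrb2. Of 11 tested NAC genes 0 were lower and 2 higher than on each side. Of 40 tested auxin genes, 2 (adaxial) and 3 (abaxial) were lower and 6 higher than on each side.

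The 3 genes lie on different chromosomes, and their neighbours did not share their pattern. On the side of higher coordinates, GRMZM2G072034 has GRMZM2G702112 at 1.57 kb, which had 0.0 RPM in all 6 libraries. The gene on the other side of GRMZM2G072034, GRMZM2G142088, was well expressed throughout. It had 144.3 and 191.7 RPM in the center zone and 113.3 to 172.0 RPM in the leaf. GRMZM2G051942 has GRMZM2G123709 at 45.7 kb, with 27.5 and 35.3 RPM in the center zone and 22.4 to 30.6 RPM in the leaf, and GRMZM2G134886 at 68.2 kb, with at most 0.1 RPM. Next to GRMZM2G045748, at 159 kb, lies ZHD13, named as a zinc finger homeodomain gene, which had 6.2 and 7.9 RPM in the center zone and 3.1 to 4.8 RPM in the leaf. On the other side, at 174 kb, AC199084.3_FG004 had 0.0 RPM in all libraries. No gene model overlapped any of the 3, so their reads were not shared with a neighbour in the deposited annotation. Reads were kept only where they aligned uniquely, and close copies elsewhere in the genome were not looked for.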

How the data were processed

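Libraries were sequenced from linearly amplified RNA. Per the methods of the study, the authors removed bases with a Phred score under 15, aligned reads to B73 RefGen_V3 with GSNAP (version not given in the sources used here) and kept unique alignments with at most 2 mismatches every 36 bp. The authors deposited read counts per gene (annotation FGSv5b), not pooled over replicates. The deposited RPM are these counts per 1000000 uniquely aligned reads of each library, rounded to 1 decimal and not corrected for gene length, and levels were therefore not compared between genes as amounts of transcript. Amplified RNA covers mostly the 3′ ends of transcripts.

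The selection used the deposited RPM. The genes and lists were chosen with earlier results of these data known. Genes with a mean of at least 2 RPM in at least 1 tissue were tested on counts with edgeR 4.0.16 (TMM, robust quasi-likelihood F test, 1 fit of 6 libraries, R 4.3.3) at a Benjamini-Hochberg adjusted p under 0.01. Standard errors came from the fold change and its F value. Alternatives were DESeq2 1.42.0, limma-trend 3.58.1 (prior count 2), other size factors, filters and thresholds, the replicate block and leaving out libraries. Identifiers were matched to a RefSeq table of assembly Zm-B73-REFERENCE-NAM-5.0 for names only: 18775 of 39656 matched and 2678 had a symbol. Genes named are the 3 selected, the 3 nearest outside each limit, their neighbours and list members, with exceptions stated. A planned search of promoter motifs was not run, since no sequence was used here. Nothing in the labels shows that replicate numbers pair libraries. Nothing but the 2 pools of apices per tissue replicates these values.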

Additional observations from a re-analysis of the deposited data

How the results depend on the processing

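The number of genes that met the selection depended on its limits, with 3 under the limits used. A leaf minimum of 5 RPM gave 13 and one of 20 RPM gave 0. A center zone ceiling of 2 RPM gave 17 and one of 0.5 RPM gave 0. Limits on group means gave 6. Leaving out a library gave 3 to 36, the highest without center zone replicate 1 and 8 without replicate 2. TMM-scaled CPM, means within 2 times and no limit on the ratio gave 3. The 3 genes were chosen on these same values, so their calls against the leaf sides describe the selection in every alternative. The count of the 3 genes called was 3 against each leaf side and 0 between the sides in all 15 alternatives of each comparison, including the replicate block (3, 3 and 0), and no sign turned. Over all tested genes, those lower in the center zone than adaxial numbered 1009, and 2648 with DESeq2, 2783 at an adjusted p under 0.05, 429 with the block, 424 with only the groups compared and 91 to 2153 without a library. Against abaxial they numbered 795, and 2349, 2481, 377, 460 and 84 to 1898. Between the sides, 13 became 195 with DESeq2, 0 with limma-trend, 49 with no filter, 44 at 0.05, 0 with the block, 75 with only the groups compared and 0 to 64 without a library. Library size alone moved the median log2 fold change of all genes from 0.03 to 0.20 and the split from 1009 lower and 1148 higher to 793 and 1551 for center zone against adaxial. Against abaxial the median went from 0.03 to 0.14. The correlation of replicate differences between tissues was 0.0159, -0.0595 and 0.187, with only 2 numbers. The causes were not tested. Counts of 9 to 23 reads limit where a gene lies against a ceiling of 1 RPM.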

Other observations

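The mirrored limits were chosen after the data had been seen. They gave 53 genes, 42 with TMM-scaled CPM, 23 at a minimum of 20 RPM, 108 at a minimum of 5 RPM and 55 to 71 when a library was left out. Leaving out replicate 1 or 2 of the center zone gave 70 and 66 genes in this direction, where the leaf direction went from 3 to 36 and 8.

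Of the genes with the 12 highest ratios of lowest leaf to highest center zone library, GRMZM2G019686 ranked 4 with a ratio of 22.1. The center zone had 18.8 and 12.3 RPM of it, adaxial tissue 553.8 and 725.6 RPM and abaxial tissue 415.2 and 436.3 RPM. GRMZM2G118490, which ranked 12, had 9.7 and 5.4 RPM in the center zone and 138.3 to 220.6 RPM in the leaf. Neither gene met the ceiling of 1 RPM.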
